A study of Mus musculus with 8 samples.

Results

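The Hedgehog pathway genes described here are 9 genes of the receiving cell: the transcription factors Gli1, Gli2 and Gli3, the receptor Ptch1, the signal transducer Smo, the ligand-binding antagonist Hhip, and the co-receptors Cdon, Boc and Gas1. They were taken by symbol from the deposited table, where all 9 were found among 53801 genes, and all 9 passed the filter on low counts that left 15945 genes to test. RNA was measured in stromal cells lacking CD45 (a leukocyte surface protein) and CD31 (an endothelial one), sorted from ulcers of the small intestine of LTβR-YFP mice treated with indomethacin, an anti-inflammatory drug that blocks cyclooxygenases and can ulcerate the gut. A YFP-positive fraction (4 libraries) was set against a YFP-negative fraction (4 libraries), with replicate numbers 1 to 4 in each. Both fractions thus share the reporter mice, indomethacin, the tissue and the sort gate, and no untreated mice entered the comparison. The labels give no age or sex of the mice, do not say how YFP expression relates to Ltbr, the lymphotoxin beta receptor gene, and do not say whether libraries came from separate animals. P-values therefore measure only the spread between these samples, which may be technical.

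Hedgehog proteins are secreted signals. Without them PTCH1 holds SMO inactive, and GLI proteins, mainly GLI3, are processed into repressors. When a ligand binds PTCH1 together with a co-receptor, SMO moves into the primary cilium, SUFU releases the GLI proteins, and target genes are transcribed, among them Gli1, Ptch1 and Hhip, which makes PTCH1 and HHIP feedback antagonists. In the gut the ligands come mainly from the epithelium and the receiving cells lie in the mesenchyme, where the signal is known for its role in smooth muscle and in subepithelial fibroblasts.

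The libraries held 12481608 to 29385718 counts, so that a normalised level of 1 CPM was about 12 counts in the smallest (CPM, counts scaled to library size). The fibroblast marker Pdgfra stood at 1310 to 2025 CPM, against 0.877 to 12.2 for Ptprc (the gene of CD45), 11.1 to 46.9 for Pecam1 (the gene of CD31) and 0.0337 to 18.3 for the epithelial gene Epcam. Ltbr was at 72.4, 51.5, 80.3 and 81.2 CPM in YFP-negative and 98.3, 64.7, 74.8 and 81.0 CPM in YFP-positive replicates 1 to 4. It was thus higher in the YFP-positive library of replicates 1 and 2 and not in that of 3 and 4. The counts followed whole gene spans on 1 strand. Of the protein-coding genes that lie wholly inside another gene of the same strand, 446 of 446 had 0 counts in all libraries, among them the 253 whose exons do not touch exons of the host, against 23.5% of 803 inside a gene of the opposite strand only and 15.4% of 20718 elsewhere. Counts may therefore include reads from introns, and a 0 in a gene nested on its own strand is no measurement. Same-strand genes cover 0% of the exon bases of each of the 9 genes and at most 1.47% of their spans (Ptch1). Replicate number 2 was distant from the other numbers in both fractions on the first principal component, at 92.5 and 78.7 against -46.2 to -12.4. Libraries of equal number deviated together, so each difference is given from a fit on the fraction alone and from a fit that also holds the replicate number as a block. "Rose" and "fell" are used only for genes at an adjusted p of 0.05 or below in the blocked fit.

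Of the 9 genes, 1 rose (Ptch1) and 1 fell (Boc) in the YFP-positive fraction with the block, by edgeR's quasi-likelihood test with Benjamini-Hochberg adjustment over all genes tested. The same fit called 364 of 15945 genes, or 2.28% (0.696% higher, 1.59% lower), and DESeq2 with the block called the same 2 genes of the 9 beside 3.36% of all. On the fraction alone 0 of the 9 were called, as were 0 of all genes (0%), and DESeq2 called 2 genes, none among the 9. At an unadjusted edgeR p under 0.05, 156 genes were higher and 169 lower. Together they are a smaller share than the 0.05 that no difference at all would give. The blocked count of all genes was 194 without replicate number 1, 157 without number 3 and 167 without number 4, and 426 (2.63%; 0.802% higher, 1.83% lower) without number 2. The number of the 9 called was then 1, 1, 1 and 4. The median log2 fold change of the 9 was -0.10 in both fits, beside 0.00 for all genes tested. The ranges of the fractions overlapped for each of the 9 genes, as they did for all but 1.55% of genes tested.

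**Figure D1:**
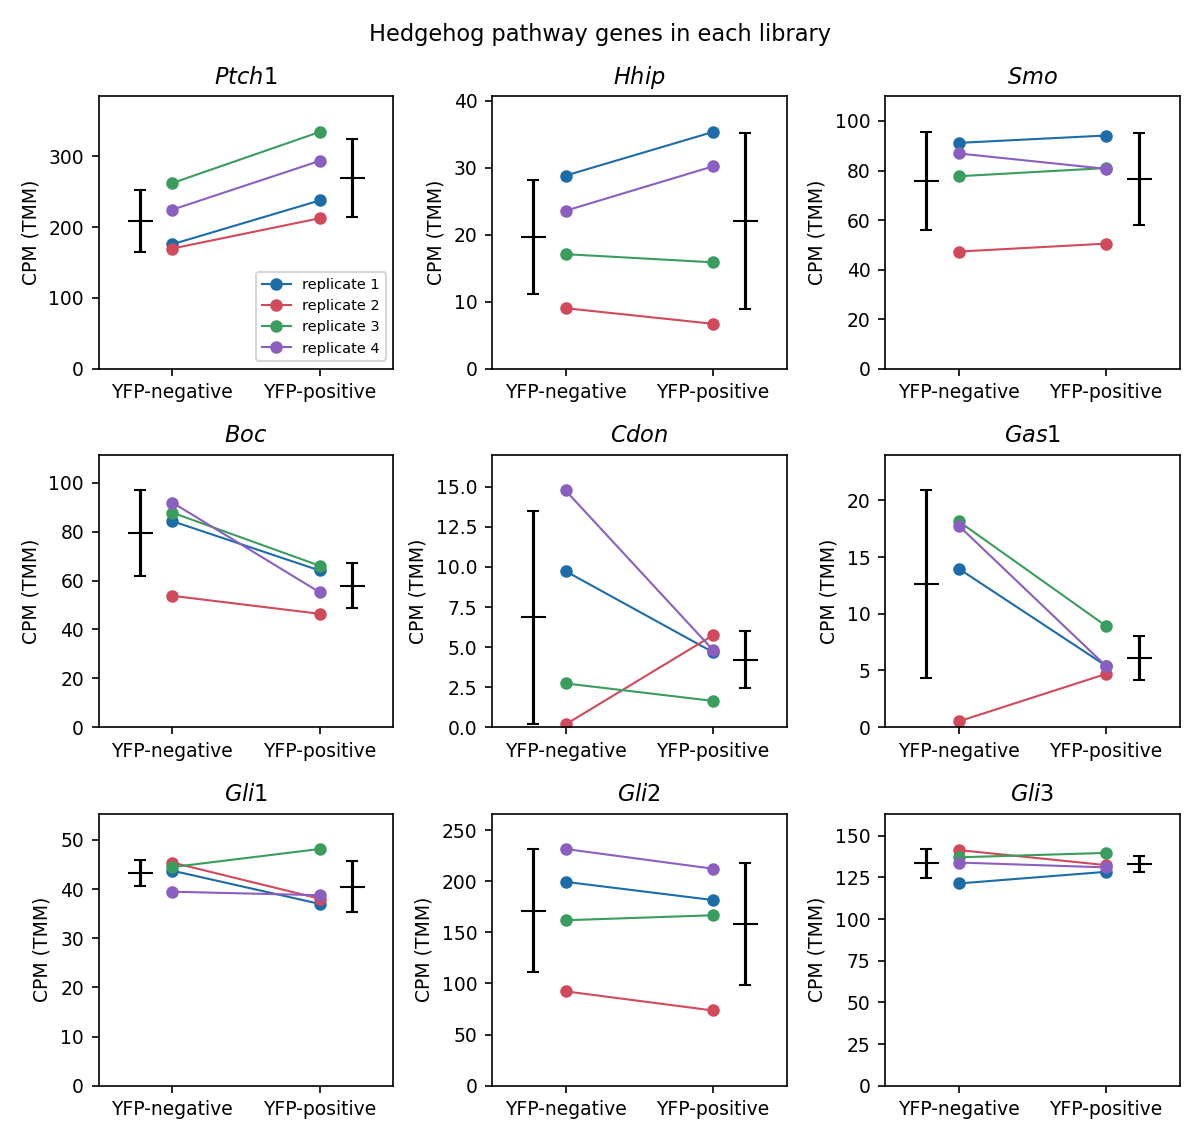
CPM of the 9 genes (vertical axes, from 0) in YFP-negative and YFP-positive libraries; points are libraries, lines join equal replicate numbers, and black bars are the mean ± SD of 4 libraries. All 4 lines rise for Ptch1 and all 4 fall for Boc, while replicate number 2 runs against the others for Cdon and Gas1.

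Ptch1 (ENSMUSG00000021466, GRCm38 chr13:63508328-63573598, minus strand) encodes the receptor whose release of SMO starts the signal. It stood at 176, 170, 262 and 225 CPM in YFP-negative replicates 1 to 4 and at 238, 212, 334 and 293 CPM in YFP-positive replicates 1 to 4. Every YFP-positive library was above its own partner, and the fractions overlapped because replicates 3 and 4 were higher than 1 and 2 in both. The means were 208 ± 43.7 and 269 ± 54.9 CPM (SD, n = 4 each). The ratios within pairs were 1.35, 1.25, 1.28 and 1.31, and 8.86% of all genes tested were higher in 4 of 4 pairs.

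With the block Ptch1 rose by 0.37 ± 0.0626 on the log2 scale (SE), a fold of 1.30 with a 95% interval of 1.18 to 1.42 (edgeR adjusted p = 0.00395). On the fraction alone the log2 fold change was also 0.37, with an interval of -0.08 to 0.83 and an unadjusted p of 0.0972. Ptch1 passed in 8 of 8 blocked settings, at log2 fold changes of 0.36 to 0.46 and with a highest adjusted p of 0.0452, reached without replicate number 3. The authors' deposited table gives a log2 fold change of 0.369 with an adjusted p of 1.04e-05 (3.01% of its genes with an adjusted p are at or below 0.05). These values come from the same counts and lie near those of DESeq2 with the block (0.367, adjusted p = 1.27e-05), so they are not separate evidence. An exact two-sided permutation test over the 70 assignments of libraries gave p = 0.143 (smallest possible 0.0286), and flipping the signs of the 4 pairs gave an exact p of 0.125, the smallest that 4 pairs allow. In bulk samples a change in the RNA of each cell and a change in the share of a cell type cannot be told apart, which holds for every difference given here.

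**Figure D2:**
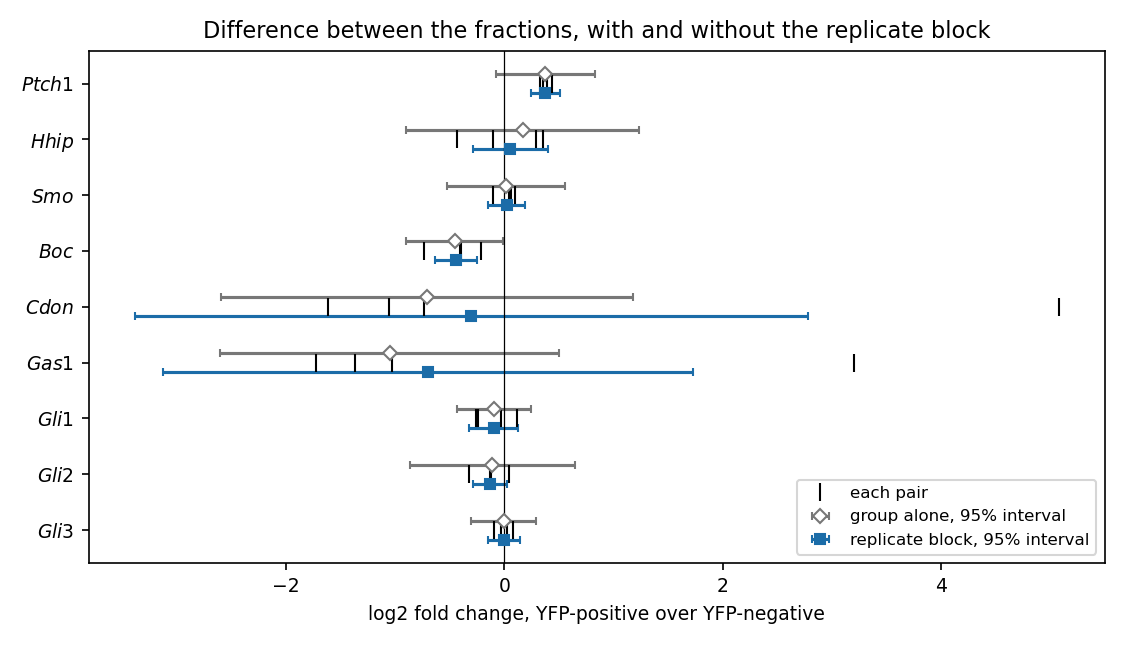
Log2 fold change of the 9 genes, YFP-positive over YFP-negative (horizontal axis), from the fit on the fraction alone (diamonds) and with the replicate block (squares), bars being 95% intervals and ticks the 4 pairs. The block narrows the interval of Ptch1 to 0.24 to 0.51 and that of Boc to -0.64 to -0.25, whereas Cdon and Gas1 each have 1 pair far to the right.

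The other antagonist at the cell surface was less abundant. Hhip (ENSMUSG00000064325, chr8:79965851-80058006, minus strand) encodes a membrane protein that binds and sequesters Hedgehog ligands. Its levels were 28.8, 9.03, 17.1 and 23.6 CPM in YFP-negative and 35.3, 6.70, 15.9 and 30.2 CPM in YFP-positive replicates 1 to 4. The pairs were divided, with higher YFP-positive values in replicates 1 and 4 and lower ones in 2 and 3, and both libraries of replicate number 2 were the lowest of their fraction. The blocked log2 fold change was 0.06 ± 0.160 (SE; edgeR adjusted p = 0.963), and the 95% interval of the fold, 0.821 to 1.32, includes the fold of Ptch1. Hhip's difference could therefore not be separated at this precision from none or from that of Ptch1.

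Smo (ENSMUSG00000001761, chr6:29735503-29761365, plus strand) encodes the transducer that PTCH1 restrains. It was measured at 91.2, 47.3, 77.7 and 86.9 CPM in the YFP-negative fraction (replicates 1 to 4) and, in the same order, at 94.1, 50.5, 81.0 and 80.7 CPM in the YFP-positive one. Partners lay close together, and replicate number 2 was low in both fractions. The blocked log2 fold change was 0.02 ± 0.0786 (SE; edgeR adjusted p = 0.971), with a 95% interval of the fold of 0.904 to 1.14. Ptch1 stood to Smo, per kilobase of exon, at 1.14 ± 0.302 in YFP-negative and 1.44 ± 0.307 in YFP-positive libraries (SD, n = 4 each), higher in 4 of 4 pairs. Another choice of length would scale both fractions alike. The exact two-sided permutation p of this ratio was 0.229, both before and after adjustment over the 2 ratios computed.

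Of the co-receptors, Boc (ENSMUSG00000022687, chr16:44485049-44558897, minus strand) encodes an immunoglobulin-family membrane protein that binds Hedgehog ligands together with PTCH1. Its levels were 84.3, 53.8, 87.8 and 91.9 CPM in YFP-negative and 64.1, 46.4, 66.1 and 55.2 CPM in YFP-positive replicates 1 to 4. Every YFP-positive library was below its partner, and the low YFP-negative replicate 2 made the fractions overlap. The means were 79.5 ± 17.4 and 58.0 ± 9.04 CPM (SD, n = 4 each), and the ratios within pairs were 0.761, 0.863, 0.753 and 0.601. Of all genes tested, 10.2% were lower in 4 of 4 pairs.

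With the block Boc fell by 0.44 on the log2 scale (SE 0.0918), a fold of 0.736 with a 95% interval of 0.643 to 0.842 (edgeR adjusted p = 0.0169). On the fraction alone its log2 fold change of -0.46 had an unadjusted p of 0.0448 and did not pass after adjustment, and the exact permutation p was 0.114. The authors' deposited table, from the same counts, gives -0.447 with an adjusted p of 0.00445, near DESeq2 with the block (-0.450, adjusted p = 0.00267). The blocked call was lost without replicate number 1 (adjusted p = 0.0562), number 3 (0.108) or number 4 (0.163), at log2 fold changes of -0.46, -0.45 and -0.34, and it passed without number 2 (-0.51, 0.00502).

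Gas1 (ENSMUSG00000052957, chr13:60174405-60177365, minus strand) encodes a lipid-anchored co-receptor. It stood at 14.0, 0.511, 18.1 and 17.8 CPM in the YFP-negative fraction (replicates 1 to 4) and, in the same order, at 5.41, 4.70, 8.92 and 5.38 CPM in the YFP-positive one. Replicates 1, 3 and 4 were lower in the YFP-positive fraction, at ratios of 0.387, 0.492 and 0.303. Replicate number 2 went the other way, from 6 counts to 68 counts, a ratio of 9.19 with a 95% interval of 4.01 to 25.9 (exact, counting error only).

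Cdon (ENSMUSG00000038119, chr9:35421128-35507652, plus strand), a co-receptor of the same family as Boc, showed the same division. Its levels were 9.74, 0.170, 2.73 and 14.8 CPM in YFP-negative and 4.68, 5.73, 1.64 and 4.83 CPM in YFP-positive replicates 1 to 4. Replicates 1, 3 and 4 had ratios of 0.481, 0.600 and 0.327, while replicate number 2 went from 2 counts to 83 counts, a ratio of 33.6 (exact 95% interval 9.02 to 282).

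Over all 8 libraries neither gene was called: the blocked log2 fold changes were -0.70 ± 0.862 for Gas1 and -0.30 ± 1.12 for Cdon (SE; edgeR adjusted p = 0.896 and 0.974). Without replicate number 2 both passed in the blocked fit, Gas1 at -1.37 (adjusted p = 0.00104) and Cdon at -1.15 (0.0405), where 2.63% of all genes were called. Boc, Gas1 and Cdon were then the 3 of the 9 lower in the YFP-positive fraction, and Ptch1 the 1 higher. Without replicate 1 or 4 the blocked value for Cdon changed sign, to 0.07 and 0.33. Gas1 shares 19.9% of its exon bases with Gm48488 on the opposite strand, to which only 24 counts were assigned in all.

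Gli1 (ENSMUSG00000025407, chr10:127329882-127341974, minus strand) encodes the activator that is itself a Hedgehog target and is often read as a measure of signal. It stood at 43.7, 45.4, 44.5 and 39.5 CPM in the YFP-negative fraction (replicates 1 to 4) and, in the same order, at 37.0, 38.0, 48.2 and 38.8 CPM in the YFP-positive one. Only replicate 3 was higher in the YFP-positive fraction, and the YFP-negative range lay inside the YFP-positive one. The blocked log2 fold change was -0.10 ± 0.104 (SE; edgeR adjusted p = 0.850), with a 95% interval of the fold from 0.800 to 1.09, and the exact permutation p was 0.371. Gli1 overlaps 2 genes of the opposite strand, Gm47200 with 1444 counts and Arhgap9 with 33 counts, over 6.55% of its exon bases.

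The interval of Gli1 ended below that of Ptch1, so the ratio of these 2 target genes was computed in each library, per kilobase of exon. Ptch1 stood to Gli1 at 1.41, 1.32, 2.08 and 2.00 in YFP-negative replicates 1 to 4 and at 2.26, 1.97, 2.44 and 2.67 in the YFP-positive ones. In 4 of 4 pairs the YFP-positive ratio was the higher, by 1.60, 1.49, 1.18 and 1.33 times, although the fractions overlapped. The means were 1.70 ± 0.393 and 2.33 ± 0.296 (SD, n = 4 each). The exact two-sided permutation p was 0.0857 (0.171 adjusted over the 2 ratios computed) and the exact sign-flip p 0.125, so the test of the difference between the genes did not reach 0.05, and 4 pairs alone could not.

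Gli2 (ENSMUSG00000048402, chr1:118834132-119053619, minus strand) encodes the main activator of the first response. It was at 199, 92.3, 162 and 231 CPM in the YFP-negative fraction (replicates 1 to 4) and, in the same order, at 182, 73.5, 167 and 212 CPM in the YFP-positive one. Replicate number 2 was the lowest in both fractions, by more than any difference between the fractions. The blocked log2 fold change was -0.13 ± 0.0727 (SE; edgeR adjusted p = 0.558), with a 95% interval of the fold of 0.820 to 1.02.

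Gli3 (ENSMUSG00000021318, chr13:15463235-15730026, plus strand), whose product acts mainly as a repressor, varied least of the 9 between libraries. It was at 121, 141, 137 and 134 CPM in the YFP-negative fraction (replicates 1 to 4) and, in the same order, at 128, 132, 140 and 131 CPM in the YFP-positive one. The means were 133 ± 8.61 and 133 ± 4.86 CPM (SD, n = 4 each), the blocked log2 fold change was -0.00 (edgeR adjusted p = 0.993), and the 95% interval of the fold was 0.901 to 1.10. With library sizes alone in place of normalisation factors the sign changed, to 0.08, while the median of all genes moved to 0.09. Gli3 shares 1.96% of its exon bases with opposite-strand Gm6556, which held 300 counts.

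To compare levels between genes, CPM was divided by the length of each gene's merged exons and, since the counts followed gene spans, also by the length of the span. The order of the 9 genes depended on this choice. Per exon length Gli2 was the highest at 24.0 CPM per kilobase (mean of 8 libraries), followed by Ptch1 at 16.8, Boc at 15.4, Gli3 at 13.9 and Smo at 13.5. Gli1 stood at 8.38, and the less abundant genes were Gas1 at 3.16, Hhip at 2.30 and Cdon at 0.718. On this scale Gli1 was above Gas1 in 8 of 8 libraries, and Gli2 was above Ptch1, Smo above Gli1, and Hhip above Cdon in 7 of 8 each. Boc above Gli3 (5 of 8), Gli3 above Smo (4 of 8) and Gas1 above Hhip (5 of 8) did not hold beyond the spread between libraries. The order of Ptch1 and Boc per exon length followed the fraction: Ptch1 was below Boc in 4 of 4 YFP-negative libraries (means 14.7 and 17.9) and above it in 4 of 4 YFP-positive ones (19.0 and 13.02), which restates the 2 differences given above.

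Per kilobase of span the highest were Ptch1 at 3.66 CPM (mean of 8 libraries), Gli1 at 3.46, Gas1 at 3.16 and Smo at 2.94, and the neighbours among these 4 were in that order in 6, 5 and 3 of 8 libraries. Boc at 0.930, Gli2 at 0.751 and Gli3 at 0.499, genes with long introns, came next, and Hhip at 0.226 and Cdon at 0.0640 were the lowest. On this scale Ptch1 was above Boc in 8 of 8 libraries. Hhip and Cdon were thus the lowest on both scales, whereas the place of Gli2, Gli1 and Gas1 was not settled by these counts.

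**Figure D3:**
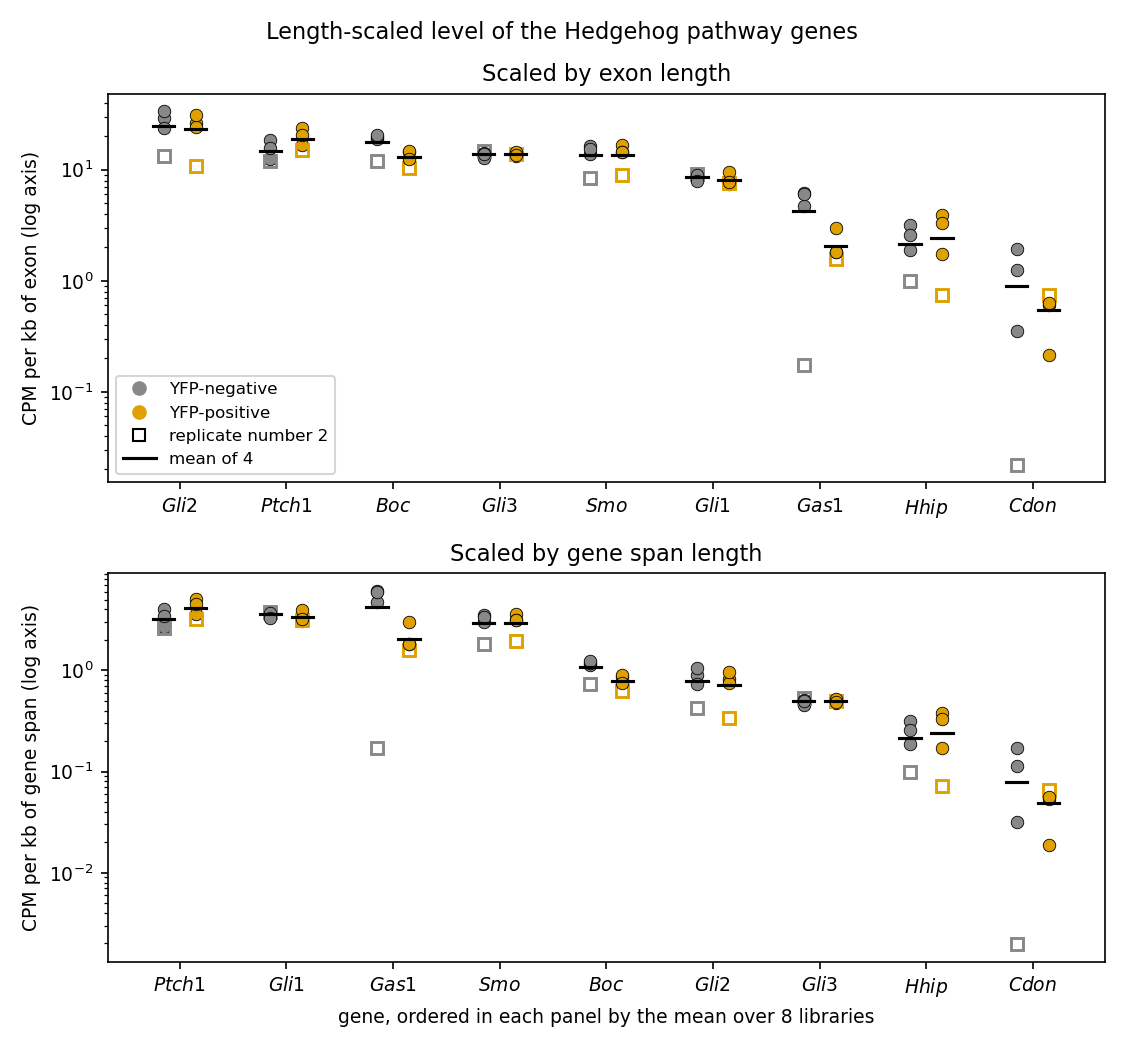
CPM per kilobase of exon (upper panel) and of gene span (lower panel), on log axes, of the 9 genes, ordered in each panel by the mean over 8 libraries; points are libraries, open squares are replicate number 2, and lines are means of 4. Gli2, Smo, Boc, Hhip and Gas1 have both open squares below the other 6 libraries, while those of Gli1 and Gli3 lie among them, and the order of the genes differs between the panels.

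Of the summed level of the 3 GLI genes per exon length, Gli2 made up 51.2% ± 11.0 in YFP-negative and 49.6% ± 11.5 in YFP-positive libraries (SD, n = 4 each). Gli3 made up 30.1% ± 6.82 and 31.9% ± 7.57, and Gli1 18.8% ± 4.26 and 18.5% ± 4.10. Within pairs the share of Gli2 was lower in the YFP-positive library in 4 of 4, by 1.55 percentage points on average (SD of the pair differences 0.977), while that of Gli3 was higher in 3 of 4 and that of Gli1 in 2 of 4. Per span length Gli1 made up 73.7% and 73.4%, and the share of Gli2 was lower in 3 of 4 pairs, so the size of the shares depended on the length used. Per exon length, in the libraries of replicate number 2 Gli2 held 36.0% and 33.3%, below the 50.1% to 60.6% of the other 6, and Gli3 held 39.6% and 43.0%.

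Replicate number 2 stood apart for more of the 9 genes than either fraction did. Both its libraries lay below the other 6 for Gli2, Smo, Hhip, Boc and Gas1, at mean ratios of 0.431, 0.573, 0.313, 0.668 and 0.224, and above them for 0 of the 9. Over all genes tested 20.9% lay below and 16.5% above in this way. Gli1 and Gli3 were at ratios of 0.995 and 1.04. What sets this replicate number apart was not tested.

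Few counts came from the ligand genes. Over all 8 libraries Shh had 1 count, Ihh 57 and Dhh 51, with highest levels of 0.0400, 1.52 and 0.829 CPM, and none passed the filter. Dhh has 77.0% of its exon bases within Rhebl1 on the same strand, so its counts cover only part of the gene. Of the 11 genes for ligands and their release 6 were tested, 0 were called in either direction with the block by edgeR or DESeq2 (1 at an unadjusted edgeR p under 0.05), and their median log2 fold change was 0.06. Scube1, a secreted protein of the family that helps release Hedgehog ligands, was the most abundant, at 330 to 496 CPM in YFP-negative and 378 to 522 CPM in YFP-positive libraries. It was higher in 4 of 4 pairs (log2 fold change 0.14, edgeR adjusted p = 0.373). Gpc6, a glypican, was at 166 to 308 and 203 to 327 CPM (0.09, adjusted p = 0.864). Disp1, which exports the lipid-modified ligand, was at 11.7 to 16 and 13.6 to 20.9 CPM (0.24, adjusted p = 0.694).

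Of 12 other surface receptors and binders tested, 1 fell and 0 rose with the block, with a median of -0.02. Among all genes tested 1.59% fell and 0.696% rose. The gene that fell was Gpc3, a glypican known to compete with PTCH1 for Hedgehog ligands, at 75.3, 56.2, 34.8 and 71.1 CPM in YFP-negative and 53.5, 45, 25.8 and 39.9 CPM in YFP-positive replicates 1 to 4. Each YFP-positive library was below its partner, and the fractions overlapped (log2 fold change -0.52 ± 0.102 SE, edgeR adjusted p = 0.0114). The call was lost without replicate number 1, 3 or 4 (adjusted p = 0.05, 0.0533 and 0.108, the first just above the threshold). Arrb1, a beta-arrestin, was higher in 4 of 4 pairs without passing the test (0.25, adjusted p = 0.0947).

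Inside the cell, 0 of 19 cytoplasmic regulators of GLI and 0 of 20 genes of primary cilium transport were called with the block by edgeR or DESeq2, with 1 of each at an unadjusted edgeR p under 0.05. Their medians were 0.02 and 0.04. Sufu, which holds GLI proteins in the cytoplasm, was at 55.5 ± 7.30 and 54.8 ± 6.94 CPM (SD, n = 4 each), and Kif7, a ciliary kinesin, at 15.1 ± 4.84 and 16.3 ± 2.79 CPM. The most abundant regulators were Csnk1a1, a casein kinase, at 422 ± 59.7 and 417 ± 65.5 CPM, and Prkar1a, a regulatory subunit of protein kinase A, at 348 ± 67.1 and 349 ± 49.5 CPM. Of the cilium genes, the motor Dync2h1 was at 92.5 ± 29.1 and 95 ± 22.2 CPM and the transition-zone gene Cc2d2a at 55.4 ± 19.7 and 55.5 ± 17.1 CPM.

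The cilium genes divided by replicate number instead. Both libraries of replicate number 2 lay below the other 6 for 13 of 20 (65.0%) and above for 1, beside the 20.9% and 16.5% of all genes. Ift140, a subunit of the retrograde transport complex, was at 9.20 and 18.6 CPM there and at 41.3 to 60.9 CPM in the other 6. Evc, a ciliary partner of SMO from the surface list, was at 14.3 and 15.6 CPM against 42.0 to 61.4 CPM. The cytoplasmic regulators had 5 of 19 below and 3 above.

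Of 17 genes reported as Hedgehog targets in mesenchyme, other than the 9, 15 were tested. With the block 3 rose (Tbx2, Bmp5 and Nkx2-3) and 1 fell (Osr1), beside 0.696% and 1.59% of all genes tested, and the median was 0.21. Of the 15, 8 were higher and 2 lower in 4 of 4 pairs, beside 8.86% and 10.2% of all genes tested. Foxf1 and Foxl1, forkhead genes that mark gut mesenchyme, could not be measured: both lie wholly inside the span of Gm20388 on the same strand and were listed at 0 counts in all 8 libraries. Without replicate number 2 the counts were again 3 and 1.

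Tbx2, a T-box repressor, stood at 60.1, 87.5, 112 and 74.3 CPM in the YFP-negative fraction (replicates 1 to 4) and, in the same order, at 95, 108, 157 and 114 CPM in the YFP-positive one. Its log2 fold change was 0.52 ± 0.0791 (SE; edgeR adjusted p = 0.0020). Bmp5, a bone morphogenetic protein, stood at 204, 151, 267 and 219 CPM and at 253, 206, 359 and 302 CPM, in the same order (0.41 ± 0.0636, edgeR adjusted p = 0.00216). Both were higher in every pair, with overlapping fractions, and both passed without any 1 replicate number. Opposite-strand genes cover 46.7% of the exon bases of Bmp5.

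Nkx2-3, a homeobox gene of gut mesenchyme, stood at 112, 108, 186 and 160 CPM in the YFP-negative fraction (replicates 1 to 4) and, in the same order, at 167, 133, 220 and 198 CPM in the YFP-positive one. It rose by 0.36 ± 0.0731 on the log2 scale (SE; edgeR adjusted p = 0.0149; 0.0877 without replicate number 1 and 0.061 without number 3). Osr1, a zinc-finger factor, stood at 22.8, 29.2, 47.0 and 41.5 CPM and at 11.6, 22.4, 25.5 and 24.5 CPM. It fell by 0.75 on the log2 scale (SE 0.132; edgeR adjusted p = 0.00552; 0.0859 without replicate number 3). Other targets did not pass: Bmp4 was at 163 ± 34.3 and 195 ± 50.9 CPM (SD, n = 4 each; adjusted p = 0.139), Foxf2 at 44.0 ± 3.79 and 50.9 ± 6.25 CPM (0.426), and the cyclin gene Ccnd2 at 62.7 ± 14.5 and 53.3 ± 10.6 CPM (0.255).

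**Figure D4:**
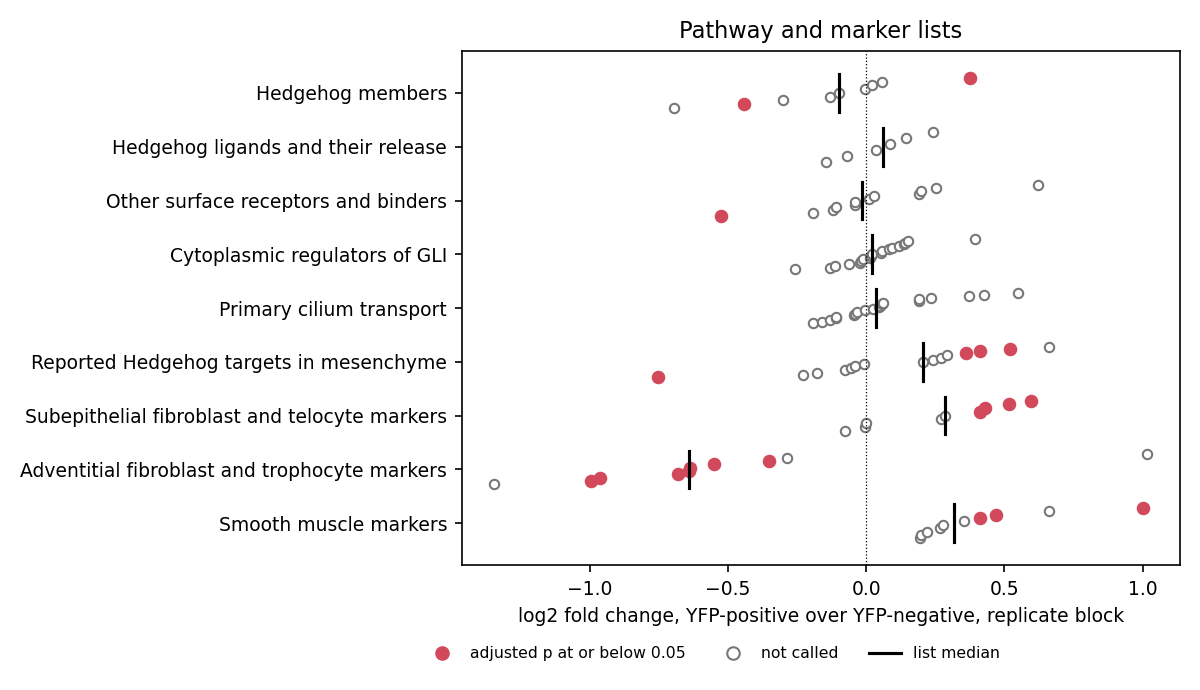
Log2 fold change of the tested genes of each list with the replicate block (horizontal axis, YFP-positive over YFP-negative); filled points have an adjusted p of 0.05 or below and black lines are list medians. The 9 Hedgehog genes have 1 filled point on each side of 0, the ligand, regulator and cilium lists have none, and the adventitial list has 7 on the left.

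Markers of stromal cell types differed between the same libraries. Their lists, like the others, were chosen with earlier results of these data known. With the block 0.696% of all genes tested rose and 1.59% fell. Of 9 subepithelial fibroblast and telocyte markers tested, 4 rose with the block (Ednrb, Nrg1, Bmp3 and Bmp5, the last also in the target list) and 0 fell, with a median of 0.28. Sox6 and Wnt5a were higher without being called (0.28 and 0.27), and Pdgfra, F3 and Dll1 were at -0.00, -0.08 and -0.00. The list summed to 2927 to 3571 CPM in YFP-negative and 3075 to 4263 CPM in YFP-positive libraries, higher in 4 of 4 pairs. Foxl1, which could not be measured, added nothing. Of mean sums of 3312 and 3810 CPM, Pdgfra made up 1668 and 1670 CPM and Nrg1 794 and 1060 CPM. Of 10 smooth muscle markers 3 rose (Myh11, Acta2 and Lmod1) and 0 fell, with sums of 580 to 928 and 675 to 1321 CPM, also higher in 4 of 4 pairs. The medians and called genes of these lists moved in the direction of Ptch1, and the part of these lists in its difference was not tested.

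Of 10 adventitial fibroblast and trophocyte markers 7 fell and 0 rose, with a median of -0.64, where 1.59% of all genes tested fell. For 5 of them the fractions did not overlap, as for 1.55% of all genes tested in either direction. Among them C3, the complement component, was at 13203 ± 1914 and 8250 ± 1328 CPM and Ackr4, a scavenging chemokine receptor, at 72.2 ± 13.1 and 36.6 ± 9.18 CPM (SD, n = 4 each). The summed level was 12206 to 16569 CPM in YFP-negative and 7408 to 10927 CPM in YFP-positive libraries, lower in 4 of 4 pairs. C3 alone made up 13203 of a mean of 14620 CPM and 8250 of 9218 CPM, so the sum mostly restates C3. Without replicate number 2 the blocked count of markers that fell was 6. This list moved in the direction of Boc, Gpc3 and Osr1, and its part in their differences was not tested.

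Of 7 pericyte markers tested 1 rose (Cspg4) and 1 fell (Rgs5), with a median of 0.15, beside 0.696% and 1.59% of all genes. In 4 of 4 pairs 3 were higher and 1 lower, beside 8.86% and 10.2% of all genes. The sum of all 8 pericyte markers, 1688 to 2009 CPM in YFP-negative and 1439 to 1790 CPM in YFP-positive libraries, was lower in 4 of 4 pairs, and Rgs5 alone made up 1140 of a mean of 1798 CPM and 886 of 1632 CPM. The 8 enteric glia markers, of which 6 were tested, summed to 10.5 to 59.3 and 6.20 to 12.1 CPM, lower in 4 of 4 pairs. S100b and Foxd3 were at 0 counts in every YFP-positive library. The 10 leukocyte markers summed to 11.5 to 16.5 and 17 to 36.5 CPM, higher in 4 of 4 pairs, with Cd3e at 0 counts in the YFP-negative libraries. Of the 7 tested, edgeR with the block called 0 (1 at an unadjusted p under 0.05), and DESeq2 with the block called Csf1r (log2 fold change 1.31, adjusted p = 0.0179). Itgam has 2 identifiers in the deposited table, of which only the first entered the list. It was at 0 counts and could not be measured, since nearly its whole span lies inside another gene of the same strand. The second, ENSMUSG00000108596, has a log2 fold change of -5.002 in the authors' deposited table, with no adjusted p. Epithelial markers summed to 2.87 to 27.0 and 2.56 to 147 CPM and endothelial markers to 58.1 to 141 and 49.5 to 236 CPM. Of 10 tested in each, edgeR with the block called 0, with 0 epithelial and 2 endothelial genes at an unadjusted p under 0.05. DESeq2 with the block called 0 epithelial genes and 1 endothelial gene, Kdr (1.68, adjusted p = 0.0422), which edgeR also called without replicate number 2.

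The genes whose profile over the 8 libraries was most like that of 3 known targets, Gli1, Ptch1 and Hhip, were found among 10527 genes of at least 5 CPM. The measure was the root mean square difference of log2 CPM after each gene was centred on its own mean. Nearest to Ptch1 was Nkx2-3, which is in the target list, at 0.0714, beside a standard deviation of Ptch1 itself of 0.339. Next came Mrpl16 at 0.0838 and Gm19710 at 0.10. Without replicate number 2 Nkx2-3 ranked 2, at 0.0610, while Mrpl16 and Gm19710 ranked 23 and 39.

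Nearest to Gli1 were Hars at 0.0524, Fxr2 at 0.0609 and Tspan3 at 0.0650, ranking 10, 34 and 49 without replicate number 2. Nearest to Hhip were Slc2a13 at 0.106, Pea15a at 0.138 and Maged2 at 0.182, ranking 3, 37 and 70 without it. These likenesses describe 8 libraries that share depth, pairing and the low replicate number 2.

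**Figure D5:**
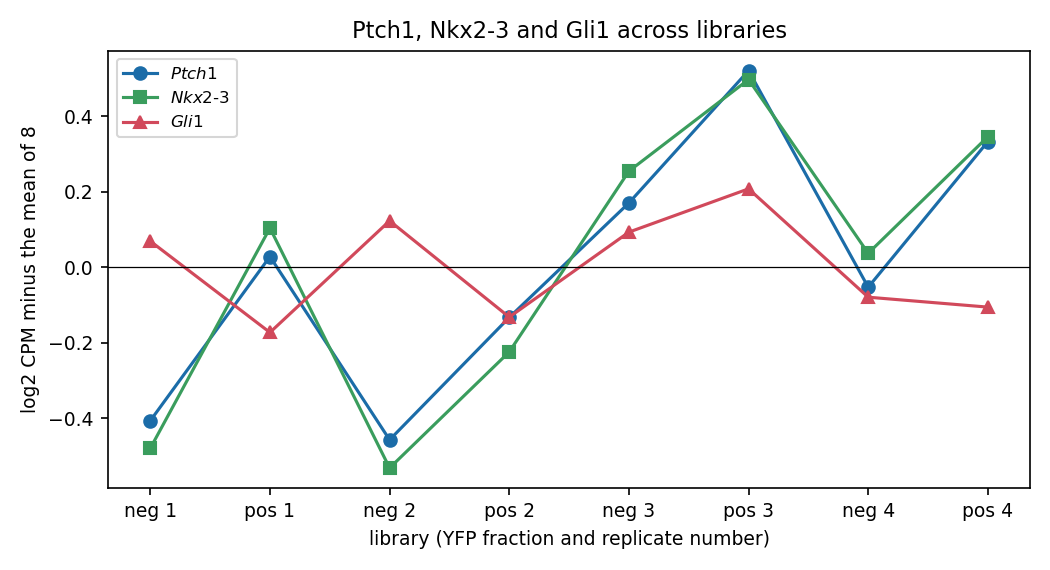
Log2 CPM of Ptch1, Nkx2-3 and Gli1, each minus its own mean (vertical axis), in the 8 libraries (horizontal axis, fraction and replicate number). Ptch1 and Nkx2-3 run close together, both highest in YFP-positive replicate 3 and lowest in YFP-negative replicate 2, while Gli1 does not follow the pairs.

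Because Ptch1 and Nkx2-3 ran together and both rose, the 250 bases before their RefSeq start sites are printed (GRCm38.p6, 5′ to 3′ on the strand of the gene). The Ptch1 window is chr13:63565736-63565985, minus strand, and lies 7863 bases inside the 5′ end that GENCODE gives the gene. The Nkx2-3 window is chr19:43612075-43612324, plus strand. Neither window holds annotated exon bases of its own gene, and exons of other genes were not checked. Capitals mark the first stretch found that was nearest, on either strand, to the GLI motif GACCACCCA. Stretches that matched equally well are not marked.
Ptch1: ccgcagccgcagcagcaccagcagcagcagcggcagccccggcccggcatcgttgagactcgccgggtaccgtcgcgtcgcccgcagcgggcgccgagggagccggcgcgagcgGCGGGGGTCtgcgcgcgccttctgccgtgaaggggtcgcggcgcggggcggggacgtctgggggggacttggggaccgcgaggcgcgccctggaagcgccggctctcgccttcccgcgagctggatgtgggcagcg
Nkx2-3: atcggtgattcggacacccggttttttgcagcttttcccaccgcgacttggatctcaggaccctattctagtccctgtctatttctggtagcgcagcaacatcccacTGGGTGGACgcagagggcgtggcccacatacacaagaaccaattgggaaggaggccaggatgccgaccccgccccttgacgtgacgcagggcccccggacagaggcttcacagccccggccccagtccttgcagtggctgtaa
In Ptch1 the nearest stretch matched 6 of 9 letters, which 98.6% of windows of this length reach, and in Nkx2-3 it matched 8 of 9 letters on the minus strand, as 5.79% of windows do or exceed. The exact motif was in 74 of 32851 windows (0.225%). Of the 9 Hedgehog genes 7 had a window, all but Gli1 and Boc, and 0 of the 7 held the exact motif. A match of letters is a description of the window, and no match says only that these letters are not in it.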

How the data were processed

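Titles of the samples gave their fraction and replicate number. Per the labels' protocols, libraries were made with a low-input stranded total RNA kit and sequenced on an Illumina NextSeq. Per the submitters' processing notes, reads were processed with STAR 2.7.3a, cutadapt 3.4, DESeq2 and featureCounts 2.0.1 on GRCm38 (mm10). Not given in the sources used here are the order of these steps, the annotation release and the counting settings. In the counts themselves genes nested in another gene of the same strand are at 0, so reads appear to have been assigned to whole gene spans by strand, with reads in more than 1 gene dropped. The table that the authors deposited holds raw counts per gene, normalised values (a score: rounded counts after division by size factors, per the file headers), and the authors' comparison as a linear ratio (fold change), a log2 fold change and p-values with adjusted p-values.

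All tests here used the deposited counts. edgeR 4.0.16 (R 4.3.3) was run with filterByExpr, TMM factors and a robust quasi-likelihood fit on the fraction alone, with two-sided tests and Benjamini-Hochberg adjustment over 15945 genes, called at 0.05 or below. At 1 CPM the smallest library held about 12 counts. The scripts were tested on simulated data. CPM values are TMM-normalised, and exon lengths and coordinates came from GENCODE M21, which holds 53706 of the identifiers. Windows before start sites came from RefSeq.

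Pairing by equal replicate numbers was checked after each group's mean log2 CPM was subtracted. Same-numbered libraries had correlations of 0.233, 0.487, 0.376 and 0.376, against at most 0.0456 for other numbers, and the own number was the best match for 8 of 8 libraries. On this ground, which the labels do not state, equal numbers were treated as pairs, and blocked values stand beside the results they change. The authors' log2 fold changes lay near those of DESeq2 with the block, at -0.535 beside -0.538 for Gas1 and -0.189 beside -0.192 for Cdon. edgeR on the fraction alone gave -1.05 and -0.71. Whether the authors fitted a block is not stated in the labels.

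The 9 members and the 14 lists (167 entries) were chosen with earlier results of these data known. The genes named are the members, up to 4 called genes per direction in each pathway list or else its 2 most abundant, the 3 genes nearest in profile to Gli1, Ptch1 and Hhip, and 5 gate genes. Further list genes (Disp1, Arrb1, Sufu, Kif7, Ift140, Evc, Bmp4, Foxf2, Ccnd2 and the stromal markers) were named after their values were seen, and values of some list genes are not reported here. The alternatives were DESeq2 1.42.0, voom with quality weights in limma 3.58.1, no normalisation factors, RLE or upper-quartile factors, a stricter and a looser count filter, mitochondrial genes left out, the replicate block, and each library or replicate number left out. Leaving out both libraries of replicate number 2 on the fraction alone was added after seeing the data, as was the gene span as a length.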

Additional observations from a re-analysis of the deposited data

Results flagged for a closer look

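In 2 of the 40 groups of 4 libraries checked, 1 value lay far from the other 3, by a gap over the range above Dixon's 95% critical value for 4 samples, which chance exceeds in about 1 of 20 groups. Gli1 was at 48.2 CPM in YFP-positive replicate 3, with the next library at 38.8 CPM (gap over range 0.842). Gas1 was at 8.92 CPM in the same library, with the next at 5.41 CPM (0.831).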

How the results depend on the processing

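On the fraction alone, edgeR, voom, each scaling, each filter and each left-out library called 0 genes, and DESeq2 called 2, none of them among the 9 Hedgehog genes. With the replicate block 364 genes passed (111 higher, 253 lower), 525 with DESeq2 (168 and 357), 364 with RLE factors (99 and 265), and 365 with library sizes alone (212 and 153), which turns the balance of directions. Without replicate numbers 1 to 4 the blocked counts were 194, 426, 157 and 167. Of the 9 genes 2 passed in each of these 4 blocked settings with all libraries, and 1, 4, 1 and 1 without numbers 1 to 4. Each fit that left a number out had fewer libraries, and the count of all genes was above 364 only without number 2. Why the counts differed was not tested.

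Ptch1 passed with the block at 0.37, with DESeq2 and RLE factors at 0.37 each, with library sizes alone at 0.46, and without numbers 1 to 4 at 0.36, 0.39, 0.38 and 0.37. Boc passed with the block at -0.44, with DESeq2 and RLE factors at -0.45 each, with library sizes alone at -0.36 and without number 2 at -0.51. Gas1 at -1.37 and Cdon at -1.15 passed only without number 2 among the blocked settings. The replicate block changed no other call among the 9.

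Signs that turned belong to genes that passed in none of the settings in which they turned, and the cause was not tested. Gli3 was at 0.021 by voom, 0.0062 with upper-quartile factors, 0.081 with library sizes alone (exact permutation p = 0.371), 0.083 with the block and library sizes alone, 0.026 and 0.0055 with the block without numbers 2 and 4, and 0.024 without both libraries of number 2. Smo was at -0.015 by voom. With the block Hhip was at -0.033 and -0.055 without numbers 1 and 4, and Cdon at 0.074 and 0.33. With each single library left out, on the fraction alone, the log2 fold change ran from -0.32 to 0.13 for Gli2, from -0.049 to 0.021 for Gli3, from -0.15 to 0.17 for Smo and from -0.14 to 0.47 for Hhip. The exact permutation p then ran from 0.457 to 1 for Gli2, 0.229 to 1 for Gli3, 0.571 to 1 for Smo, 0.400 to 1 for Hhip, 0.343 to 1 for Cdon and 0.0571 to 0.914 for Gas1.

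Among the other genes named, the left-out libraries gave -0.10 to 0.22 for Gpc6, -0.10 to 0.069 for Csnk1a1, -0.085 to 0.13 for Prkar1a, -0.13 to 0.27 for Dync2h1 and -0.23 to 0.17 for Cc2d2a. Csnk1a1 was at 0.017 by voom, 0.067 with library sizes alone (0.066 with the block), and 0.0064 with the block without number 1. Prkar1a was at -0.0057 with DESeq2, -0.0058 with RLE factors and -0.036 with the block without number 1. Cc2d2a was at 0.013 with upper-quartile factors, 0.090 with library sizes alone, 0.0044 and 0.0013 with the looser and stricter filters, 0.025 with the block, 0.019 and 0.018 with the block in DESeq2 and with RLE factors, 0.11 with the block and library sizes alone, and 0.099, 0.017 and 0.055 with the block without numbers 1, 3 and 4. With the gene span as the length in place of exons, the levels in YFP-negative and YFP-positive libraries were 3.58 and 3.35 CPM per kilobase for Gli1, 0.780 and 0.722 for Gli2, 0.500 and 0.498 for Gli3, 3.19 and 4.13 for Ptch1, 2.93 and 2.96 for Smo, 0.213 and 0.239 for Hhip, 1.08 and 0.785 for Boc, and 0.0792 and 0.0488 for Cdon, because spans are longer. Cdon and Gas1 rested on 2 and 6 counts in YFP-negative replicate 2, a library of 12481608 counts beside 14564835 in YFP-positive replicate 2. Why both were low there was not tested.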
